A study of Caenorhabditis elegans with 53 samples.

Results

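The 9 genes described here encode Argonaute proteins of the nematode Caenorhabditis elegans: alg-1, alg-2, alg-3, alg-4, ergo-1, csr-1, prg-1, hrde-1 and wago-1. They were taken by name from the rows of genes targeted by 22G-RNAs, and by the same gene identifiers from the 30122 genes of the mRNA table. Rows of 22G-RNAs covered 32640 genes in the data of wild type and rde-1(ne219), and 6888 genes had one in all 8 small RNA tables. Argonautes are the proteins that hold a small RNA and use it to find a matching transcript. Their own transcripts can be targets too, so each gene was measured here as an mRNA and as the template of 22G-RNAs, short antisense RNAs that begin with G.

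In C. elegans, RNA-dependent RNA polymerases copy 22G-RNAs from a target transcript after a first small RNA has marked it. The WAGO Argonautes, such as WAGO-1 and HRDE-1, use 22G-RNAs to silence genes, whereas CSR-1 carries 22G-RNAs against genes that are expressed in the germline. Upstream of them stand Argonautes with first-step small RNAs: PRG-1 with piRNAs, ERGO-1, ALG-3 and ALG-4 with 26G-RNAs, and RDE-1 with small interfering RNAs cut by Dicer from double-stranded RNA. ALG-1 and ALG-2 carry microRNAs.

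The series held 53 samples, 47 of small RNAs and 6 of mRNAs. All were gravid hermaphrodite adults sampled as whole animals, except for 2 libraries of mixed-stage embryos. Animals were grown for 72 to 75 hours from synchronized first-stage larvae at 20 °C on E. coli OP50 or HT115. The labels do not say that replicates came from separate cultures, so p-values measure the spread between these libraries, which may be technical.

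Small RNAs were compared between wild type (N2) and rde-1(ne219) (strain WM27), with 3 libraries each, and between wild-type adults and embryos, with 3 and 2. All 25921 rows found in both tables had equal values in the 3 adult and the 3 wild-type libraries, so those comparisons share their controls. Another comparison set dcr-1 RNAi against the empty vector L4440, with 2 libraries each, in rde-1(cmp133[(gfp::3xFLAG)::rde-1]). The column names of that table also give RDE-4::FLAG, and its second dcr-1 RNAi column is numbered replicate 3, so its strain is uncertain. Co-immunoprecipitates (co-IPs) were set against their inputs, the lysates they were made from. This was done for GFP::RDE-1 without an RNAi label (strain USC1080, whose cmp133 label adds a loxP site, 2 libraries each) and on nrfl-1 RNAi (3 each), and for alg-1(ap423[3xflag::gfp::alg-1]) on nrfl-1 RNAi (3 each), where the columns name an HA tag instead. The ap423 strain and alg-2(tor139[GFP::3xFLAG::alg-2b]) were also fed L4440 or rde-1 RNAi, with 2 inputs and 2 co-IPs in each of these 4 groups. For mRNA there were 3 libraries of N2 and 3 of rde-1(ram40), so by the sample labels the small RNAs and the mRNAs were measured in different rde-1 alleles, although the series' design text names ram40 for both. All genotypes other than N2 carry a mutation or a tag in rde-1, alg-1 or alg-2, and each stands for 1 strain.

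Small RNA values were RPM, read numbers scaled to library size, compared only between libraries of 1 table. Low values rose in steps of 0.0314 to 0.0930 RPM, which puts 10.8 to 31.8 reads behind 1 RPM. The 22G-RNAs held 35.5% to 59.8% of the summed RPM in the wild-type, rde-1(ne219), embryo, L4440 and dcr-1 RNAi libraries and in the GFP::RDE-1 inputs without an RNAi label. In the ALG-1, ALG-2 and nrfl-1 RNAi inputs they held 0.711% to 1.46%. The labels name treatment with RNA 5′ pyrophosphohydrolase, which lets the triphosphate ends of 22G-RNAs be ligated, only for the wild-type, rde-1(ne219) and GFP::RDE-1 libraries without an RNAi label. Adults and embryos are both labelled as untreated, yet the adult values equal those of wild-type libraries labelled as treated, so whether adults and embryos were prepared alike is uncertain.

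In the authors' classes, the 9 genes had 12 rows of 22G-RNAs. The gene alg-1 (WBGene00000105) was in the WAGO class. The genes alg-2 (WBGene00000106) and ergo-1 (WBGene00019971) were in the CSR class, and alg-3 (WBGene00011910), alg-4 (WBGene00006449) and prg-1 (WBGene00004178) were among ALG targets, the class named for 22G-RNAs that follow the 26G-RNAs of ALG-3 and ALG-4. The remaining genes, csr-1 (WBGene00017641), hrde-1 (WBGene00007624) and wago-1 (WBGene00011061), had a row in both of these classes with identical values and are counted once. Rows of 26G-RNAs were listed for 6 of the 9 genes and were low, at most 0.540 RPM (prg-1) in any of the 47 libraries. Levels are not ranked between genes, since no transcript lengths were used.

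The first comparison asked how 22G-RNAs differ between the mutant rde-1(ne219) and wild type. How much RDE-1 function this allele keeps was not measured here. The 22G-RNAs of 7 Argonaute genes were abundant enough to test, with a mean of at least 1 RPM, and all 7 were higher in rde-1(ne219) than in wild type. The rise was 3.11-fold for the microRNA Argonaute gene alg-1, 1.72-fold for ergo-1, 1.63-fold for alg-2 and 1.53-fold for csr-1. It was 1.27-fold for wago-1 and for prg-1 and 1.16-fold for hrde-1. Rises were common in this comparison: 39.5% of all 13650 features tested, and 48.9% of the 9814 genes with 22G-RNAs, were higher by the same test (limma, Benjamini-Hochberg adjusted p under 0.05). The median log2 fold change of the 7 genes was 0.61, beside 0.18 for all features and 0.26 for all 22G-RNA genes. Centring each library on its median, which takes the shift of all features out, left 4 of the 7 calls, those of alg-1, alg-2, ergo-1 and csr-1. Of all calls, 75.4% were higher as deposited and 53.1% after centring.

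**Figure D1:**
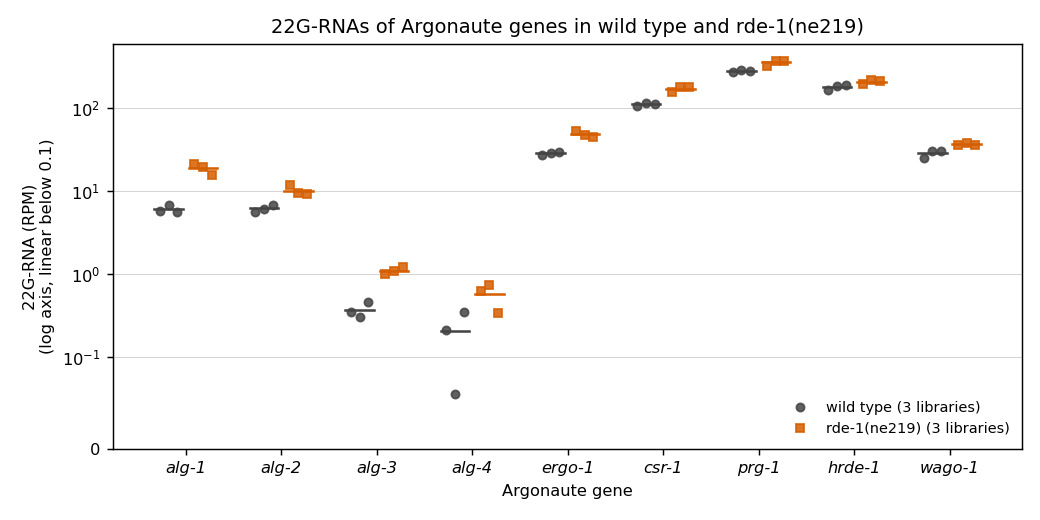
22G-RNA level of each Argonaute gene in RPM (log axis, linear below 0.1), with 1 point per library and a bar at the group mean, in 3 wild-type and 3 rde-1(ne219) libraries. The points of alg-1 lie farthest apart, at 5.63 to 6.82 RPM in wild type and 15.85 to 21.14 RPM in the mutant, and only those of alg-4 overlap.

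Among the microRNA Argonaute genes, alg-1 had 5.69, 6.82 and 5.63 RPM in the wild-type libraries and 21.14, 19.42 and 15.85 RPM in rde-1(ne219). The groups were far apart, with the lowest mutant library above every wild-type library (log2 fold change of RPM + 1 of 1.49, SE 0.12, limma adjusted p 2.47e-06). Of the 2098 WAGO-class rows tested, 48 had a larger log2 fold change, and the class as a whole had a median of -0.05, with 658 rows higher and 704 lower. Its close relative alg-2 had 5.64, 6.08 and 6.83 RPM in wild type and 11.72, 9.37 and 9.19 RPM in the mutant (a log2 difference of 0.62 with SE 0.12, limma adjusted p 0.00126). The alg-2 groups did not overlap either, and its change lay above that of 91.3% of the 3509 CSR-class rows.

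Among the Argonautes that act with 26G-RNAs, ergo-1 had 27.06, 29.24 and 29.46 RPM in wild type and 53.68, 48.11 and 45.63 RPM in rde-1(ne219). Every mutant library stood above every wild-type library (a log2 difference of 0.76 with SE 0.08, limma adjusted p 1.85e-05), and 97 of the 3509 CSR-class rows had a larger one. The sperm Argonaute genes alg-3 and alg-4 were too low to test. For alg-3 the values were 0.35, 0.30 and 0.46 RPM in wild type and 0.99, 1.09 and 1.21 RPM in the mutant, which did not overlap. For alg-4 they were 0.21, 0.06 and 0.35 RPM against 0.63, 0.74 and 0.34 RPM, which did. In these 6 libraries 3 reads came to 0.143 to 0.211 RPM, so the alg-4 values rest on few reads.

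The germline genes csr-1 and prg-1 were higher in the mutant as well. For csr-1 the wild-type libraries had 106.62, 115.61 and 113.55 RPM and the mutant libraries 156.59, 178.66 and 180.03 RPM (a log2 difference of 0.61 with SE 0.07, limma adjusted p 4.80e-05). These groups were clearly apart, and csr-1 changed more than 90.3% of the CSR-class rows, a class in which 2374 of 3509 rows were higher and 24 lower (median 0.35). The piRNA Argonaute gene prg-1 had 272.40, 288.72 and 285.71 RPM in wild type and 325.75, 376.21 and 373.09 RPM in the mutant (log2 fold change 0.34, limma adjusted p 0.00256). Its change was near the median of the 638 ALG-target rows, which was 0.34, with 50.2% of the rows below it. Centring on the library medians ended the prg-1 call (adjusted p 0.0613), as did testing all features without a filter (0.0536), and the range over all alternatives was 0.000381 to 0.0613.

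The cytoplasmic WAGO gene wago-1 had 25.33, 30.54 and 30.40 RPM in wild type and 35.72, 38.29 and 35.86 RPM in rde-1(ne219) (log2 fold change 0.34, limma adjusted p 0.00611). Its groups did not overlap, but the call was lost on centring (0.0687) and without the filter (0.0931), with a range over the alternatives of 0.00484 to 0.0931. The gene of the nuclear Argonaute hrde-1, which is needed for the inheritance of silencing, had 164.80, 187.01 and 190.04 RPM against 199.08, 218.56 and 211.41 RPM. Every mutant library was again higher, by less than in the other genes (log2 fold change 0.22, limma adjusted p 0.0284). The hrde-1 call was lost in 8 of 15 alternatives, among them leaving out wild-type library 1 (adjusted p 0.106), mutant library 2 (0.106) or mutant library 3 (0.0709), and its adjusted p ranged from 0.0162 to 0.495.

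Class composition moved with these changes. The CSR-class rows summed to 87437 to 97785 RPM in wild type and 120097 to 126524 RPM in rde-1(ne219), and the WAGO-class rows to 256912 to 266166 and 225094 to 253219 RPM. The share of microRNAs was 29.0% to 32.5% and 26.2% to 29.3%. The part of this composition in the changes of single genes was not tested beyond the rescaled fits. With the 22G-RNA rows of each library rescaled to the same sum, 6 of the 7 genes still passed, all but hrde-1.

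Other Argonaute genes and genes that act beside them were also examined. In this comparison 48.9% of all genes with 22G-RNAs and 67.7% of CSR-class rows were higher, so rises in these lists were common. Among 14 other Argonaute genes, 12 were tested, 7 were higher in rde-1(ne219) and 0 were lower by limma, with a median log2 fold change of 0.32 over those tested. The largest change was that of sago-1, which encodes an Argonaute of the secondary small RNAs, with 1.5 ± 0.298 RPM in wild type and 4.39 ± 0.302 RPM in the mutant (SD, n = 3 each; limma adjusted p 5.46e-05). The CSR-1 relative wago-4 went from 229.2 to 327.6 RPM and rde-1 itself from 30.7 to 42.6 RPM, both past the threshold. Of 26 genes for small RNA synthesis and partners of Argonautes, 25 were tested, 16 were higher and 0 lower (median 0.34). The most changed of these was ain-1, which encodes a GW182 partner of ALG-1 and ALG-2, with 20.4 ± 0.301 RPM in wild type and 34.1 ± 1.72 RPM in the mutant (SD, n = 3 each; a log2 difference of 0.71, limma adjusted p 1.64e-05). The helicase gene mut-14 went from 100.8 to 153.1 RPM, past the threshold, and mut-7, a nuclease gene, from 88.9 to 127 RPM, also past it.

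The next comparison asked which 22G-RNAs depend on Dicer, through RNAi of dcr-1. Of the Argonaute genes, 7 were tested, hrde-1 and prg-1 were higher on dcr-1 RNAi than on L4440, and 5 did not pass. For hrde-1 the L4440 libraries had 89.63 and 98.76 RPM and the dcr-1 RNAi libraries 132.37 and 121.95 RPM (1.35-fold, a log2 difference of 0.43 with SE 0.09, limma adjusted p 0.00420). For prg-1 they had 235.23 and 250.15 RPM against 303.45 and 268.99 RPM (1.18-fold, log2 fold change 0.24, limma adjusted p 0.0347). Neither gene overlapped between the groups. By comparison, 17.8% of all 7704 features and 22% of the 5754 genes with 22G-RNAs were higher, with medians of 0.21 and 0.26, so 2 of 7 is near that background.

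Both calls were fragile. No Argonaute gene passed after centring, after either rescaling, without the filter, or without the mean-variance trend in the test. The hrde-1 call was also lost without L4440 library 1 (adjusted p 0.0916) or without dcr-1 RNAi library 1 (0.10), and its adjusted p ranged from 0.00402 to 0.347. The prg-1 call was lost without L4440 library 1 (0.213), without L4440 library 2 (0.0544) and without dcr-1 RNAi library 1 (0.385), with a range of 0.0292 to 0.914. Of all calls in this comparison 84.1% were higher, against 20.8% after centring. The L4440 libraries had 50.8% to 52.3% of their summed RPM in 22G-RNAs, against 58.2% to 59.8% on dcr-1 RNAi. Their share of microRNAs was 43.2% to 44.9%, against 32.9% to 34.7%. The part of this shift was tested only by those rescalings.

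The other 5 tested genes gave differences between -0.12 (alg-2) and 0.37 (ergo-1). The 26G-RNA Argonaute gene ergo-1 had 16.43 and 19.09 RPM on L4440 and 23.01 and 23.34 RPM on dcr-1 RNAi, which did not overlap (limma adjusted p 0.0535). For wago-1 the values were 12.60 and 13.66 RPM against 15 and 19.48 RPM, also without overlap (0.0938). For csr-1 they were 61.64 and 71.71 RPM against 71.62 and 84.64 RPM, which overlapped (0.118). The 22G-RNAs of alg-1 had 5.85 and 7.43 RPM on L4440 and 6.52 and 7.51 RPM on dcr-1 RNAi, so the libraries of both groups lay in 1 range (a log2 difference of 0.07 with SE 0.19, limma adjusted p 0.784). Those of alg-2 overlapped as well, at 4.31 to 4.77 RPM and 3.39 to 4.91 RPM. The genes alg-3 and alg-4 had at most 0.330 RPM in any of these libraries. Of the other Argonaute genes, 3 of 9 tested were higher and 0 lower, namely prg-2, ppw-1 and wago-4. Of the synthesis and partner genes, 6 of 18 were higher and 0 lower. Among all genes with 22G-RNAs 22% were higher, and among CSR-class rows 19.9%.

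The comparison of embryos with adults gave larger differences. The 22G-RNAs of 6 Argonaute genes were lower in embryos and those of alg-1 were higher. The fall was 3.87-fold for csr-1 and 2.75-fold for prg-1, and 1.80-fold for wago-1, 1.67-fold for hrde-1, 1.58-fold for alg-2 and 1.47-fold for ergo-1. Most features fell: 65.7% of all 9554 features were lower and 12% higher, and 75.3% of the 5809 genes with 22G-RNAs were lower, with median log2 fold changes of -0.67 and -0.74. After centring on those medians 49.9% of the calls were higher, against 15.5% without centring. Of the Argonaute genes, csr-1, prg-1 and alg-1 then passed.

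**Figure D2:**
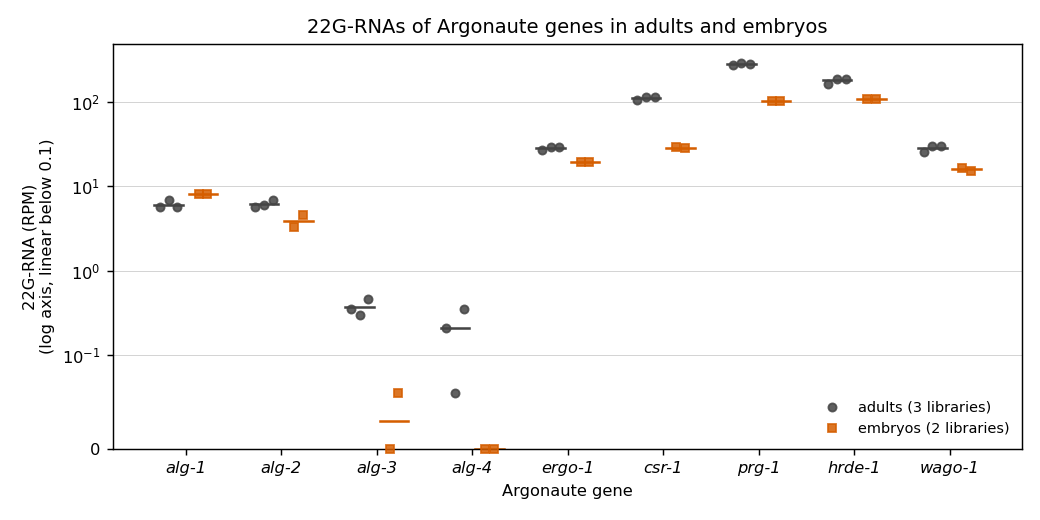
22G-RNA level of each Argonaute gene in RPM (log axis, linear below 0.1), with 1 point per library and a bar at the group mean, in 3 adult and 2 embryo libraries of wild type. Embryos lie below adults for every gene except alg-1, which had 8.09 and 8.11 RPM in embryos and 5.63 to 6.82 RPM in adults.

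The largest differences were those of the germline Argonaute genes. For csr-1 the adult libraries had 106.62 to 115.61 RPM and the embryo libraries 29.49 and 28.32 RPM (a log2 difference of -1.92 with SE 0.07, limma adjusted p 3.83e-07). Only 1.32% of the 3476 CSR-class rows tested had a larger fall, in a class with a median of -0.86. For prg-1 the embryos had 103.74 and 101.68 RPM and the adults 272.40 to 288.72 RPM (-1.45, SE 0.06, limma adjusted p 7.70e-07). The csr-1 and prg-1 falls passed in all 14 alternatives, with log2 fold changes of -1.24 or lower and -0.78 or lower.

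For hrde-1 the embryo libraries had 108.64 and 108.05 RPM against 164.80 to 190.04 RPM in adults (-0.73, limma adjusted p 7.18e-05). For wago-1 they had 16.76 and 15.22 RPM against 25.33 to 30.54 RPM (-0.81, limma adjusted p 0.000259). These falls were near the median of all features, and both calls ended on centring (adjusted p 0.571 and 0.260, the highest over their alternatives). For ergo-1, an Argonaute of oocytes and embryos, the embryo libraries had 19.55 and 19.45 RPM against 27.06 to 29.46 RPM (-0.53, limma adjusted p 0.000534). Its fall was smaller than the median, and its sign turned to 0.15 on centring.

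The microRNA Argonaute genes went different ways. For alg-2 the embryo libraries had 3.28 and 4.55 RPM and the adults 5.64 to 6.83 RPM (-0.56, SE 0.16, limma adjusted p 0.0129). This call was lost without embryo library 1 (adjusted p 0.0700), the sign turned to 0.12 on centring, and the adjusted p ranged from 0.00439 to 0.570. For alg-1 both embryo libraries stood above every adult library (1.34-fold, a log2 difference of 0.37 with SE 0.13, limma adjusted p 0.0266). The rise was larger after centring (1.05) or after rescaling to the 22G-RNA sum (0.84), but on the deposited scale it was lost without embryo library 1 (0.0648), embryo library 2 (0.0747), adult library 1 (0.0681) or adult library 3 (0.0752), and its adjusted p ranged from 0.000203 to 0.102. As a share of all 22G-RNAs, alg-1 held 32.5 ± 0.55 ppm in embryos (SD, n = 2) and 16.8 ± 1.57 ppm in adults (n = 3). Of the 2091 WAGO-class rows tested, 429 (20.5%) had a larger log2 fold change than alg-1. In that class 492 rows (23.5%) were higher in embryos and 1255 (60%) lower, so a rise like that of alg-1 was not rare there.

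The sperm Argonaute genes had almost no 22G-RNAs in embryos. For alg-3 the embryo libraries had 0 and 0.06 RPM and the adults 0.30 to 0.46 RPM. The gene alg-4 was listed at 0 in both embryo libraries and at 0.06 to 0.35 RPM in adults. Neither could be tested. The labels of embryos and adults were checked on microRNAs: let-7-5p, a late larval and adult microRNA, had 0.53 RPM in embryos and 168.6 RPM in adults, and miR-35-3p, an embryonic one, 36785 and 9555 RPM. The adults were gravid and so held embryos. In such whole-animal samples fewer cells of a type and less RNA per cell cannot be told apart. The 22G-RNA share was 35.5% to 37.1% in embryos and 55.1% to 58.3% in adults. Among all genes with 22G-RNAs 75.3% were lower in embryos, and among CSR-class rows 86.4%. Of the other Argonaute genes 8 of 9 tested were lower and 0 higher, and of the synthesis and partner genes 17 of 19 were lower. The 1 that was higher was ain-1, at 20.4 ± 0.301 RPM in adults and 30.4 ± 1.89 RPM in embryos (SD, n = 3 and 2; log2 fold change 0.55, limma adjusted p 0.000418).

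**Figure D3:**
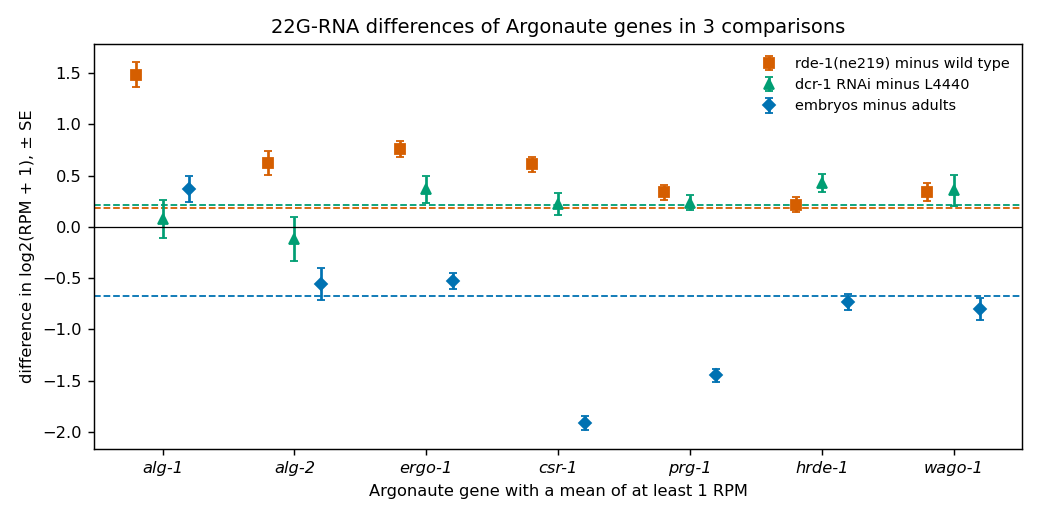
Difference in log2(RPM + 1) with its standard error for the 7 tested Argonaute genes in rde-1(ne219) against wild type, dcr-1 RNAi against L4440 and embryos against adults. Dashed lines mark the median of all features in each comparison (0.18, 0.21 and -0.67). All 7 genes stand above it in the first. In the last, alg-1, alg-2 and ergo-1 stand above it, and csr-1 lies farthest below it.

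The genes with the most similar 22G-RNA pattern were sought over the 12 lysate groups, on the group means as log2(RPM + 1) less the group's median over the rows compared. The groups come from separately made tables and differ in depth and preparation. In those poor in 22G-RNAs the added 1 RPM weighs heavily on low values, so the Pearson correlations describe this scale only and have no test. Among 4078 rows, the 22G-RNAs most like those of csr-1 were of the cohesin gene scc-1 (r = 0.99) and of snpc-1.2 (0.98). Those most like prg-1 were of the P granule gene pgl-1 (0.98) and of cyk-1 (0.97). Those most like hrde-1 were of hal-2 and cec-6 (0.95 each), those most like wago-1 of F53F4.12 and ztf-7 (0.97 and 0.96), and those most like ergo-1 of exos-3 and rexd-1 (0.86 and 0.81). The alg genes were below the 5 RPM this measure required.

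For the microRNA Argonaute gene alg-1, the share of all 22G-RNAs can be set side by side over the lysates rich in 22G-RNAs, though they come from different tables and were tested only within one. Among these 6 groups it was lowest in wild-type adults, at 16.8 ± 1.57 ppm (SD, n = 3). The L4440 lysates had 22.1 ± 3.22 and those of dcr-1 RNAi 20.3 ± 2.52 (n = 2 each), which did not differ beyond their spread. Embryos had 32.5 ± 0.55 and GFP::RDE-1 inputs 33.6 ± 1.99 (n = 2 each), again not apart beyond their spread. The highest of the 6 was rde-1(ne219), at 51.1 ± 5.97 (n = 3). The order of the same groups for csr-1 differed, with 115.8 ± 1.56 ppm in embryos, 222.2 ± 18.7 on L4440 and 225.6 ± 21 on dcr-1 RNAi, which overlapped, 311.2 ± 7.43 in wild type, 346.3 ± 23.3 in GFP::RDE-1 inputs and 469.1 ± 49.2 in rde-1(ne219).

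Co-IPs asked which small RNAs an Argonaute holds. In the GFP::RDE-1 co-IP without an RNAi label, the 22G-RNAs of 7 tested Argonaute genes were lower than in the input, by 4.48-fold for ergo-1 to 6.69-fold for wago-1. This was the rule for the library: 87.2% of all 9046 features and 99.8% of the 5698 genes with 22G-RNAs were lower, and the 22G-RNA share fell from 54.2% to 56.4% in inputs to 8.79% to 9.56% in co-IPs. The median log2 fold change was -2.25 for the 7 genes, beside -1.87 for all features and -2.06 for 22G-RNA genes.

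**Figure D4:**
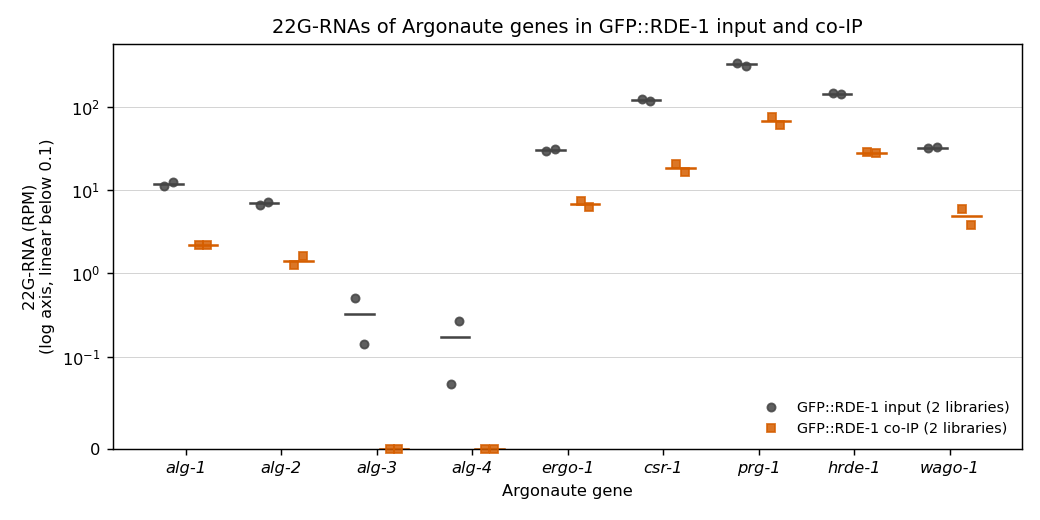
22G-RNA level of each Argonaute gene in RPM (log axis, linear below 0.1), with 1 point per library and a bar at the group mean, in 2 GFP::RDE-1 inputs and 2 co-IPs. Every co-IP point lies below the inputs of its gene, and alg-3 and alg-4 are at 0 in both co-IPs.

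The log2 differences of RPM + 1 for the 7 genes ran from -1.71 (alg-2) to -2.65 (csr-1). This order differs from that of the plain ratios, since the added 1 RPM lessens the fall of low genes. The alg-2 co-IPs had 1.26 and 1.60 RPM. Of the 3431 CSR-class rows tested, 93.8% had a larger log2 fold change than csr-1 and 14.7% a larger one than alg-2. For csr-1 the inputs had 118.56 and 125.45 RPM and the co-IPs 20.90 and 16.61 RPM (a log2 difference of -2.65 with SE 0.15, limma adjusted p 4.98e-05). With 22G-RNA rows rescaled to 1 sum, csr-1 was the only Argonaute gene that still passed as lower (-0.52, adjusted p 0.0387, the highest over its alternatives). The difference of wago-1 was as large but did not pass (-0.56, adjusted p 0.103, likewise the highest), at 92.6 ± 1.53 ppm of the 22G-RNAs in the inputs and 62.1 ± 13.4 ppm in the co-IPs (SD, n = 2 each), without overlap. The split of all calls turned with that rescaling, from 7.37% higher to 73.1% higher, and to 43.6% on centring. For alg-1 the inputs had 11.14 and 12.59 RPM and both co-IPs 2.19 RPM (-2.01, limma adjusted p 9.93e-05), and for prg-1 they had 318.64 and 339.25 RPM against 77.05 and 60.57 RPM (-2.25, limma adjusted p 5.85e-05). After the same rescaling, alg-1 (adjusted p 0.404) and prg-1 (0.605) did not pass, and these p-values are the highest over their alternatives. As a share of the 22G-RNAs in ppm, alg-1 had 33.6 ± 1.99 in the inputs and 28.2 ± 2.31 in the co-IPs, and ergo-1 had 87.7 ± 1.06 and 88.5 ± 2.56 (SD, n = 2 each). The genes alg-3 and alg-4 had 0.07 to 0.51 RPM in the inputs and 0 in both co-IPs.

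The remaining co-IPs held few 22G-RNAs in their inputs, so fewer genes could be tested. In these tables the tested genes reached the mean of 1 RPM mostly through their inputs. A lower co-IP was thus largely set by the filter, for these genes and for the shares of 22G-RNA genes beside them. In the GFP::ALG-1 table csr-1, prg-1 and hrde-1 were tested, and all 3 were lower in the co-IP on L4440 and on rde-1 RNAi, as were 95.3% and 94.8% of all features and 99.7% of the 22G-RNA genes on each food. The prg-1 inputs on L4440 had 7.15 and 6.86 RPM and the co-IPs 0.06 and 0.12 RPM. For csr-1 they had 2.09 and 2.84 RPM against 0.09 and 0.12 RPM, and on rde-1 RNAi 2.74 and 3.21 RPM against 0 in both co-IPs. These values of the L4440 co-IPs lie under that of 3 reads there, which was 0.175 and 0.18 RPM.

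In the GFP::ALG-2 table prg-1 and hrde-1 were tested and both were lower on each food, as were 94.5% of all features and 100% of the 22G-RNA genes. The prg-1 inputs on L4440 had 4.79 and 5.62 RPM and the co-IPs 0.27 and 0.22 RPM. The medians over all features were -2.50 to -2.55 in these 2 tables, and after centring the Argonaute genes that passed were higher, not lower. Higher there means a smaller fall than that median, not enrichment, since in RPM these genes were lower in every co-IP library. The added 1 RPM limits how far a gene with a low input can fall on this scale. Counts near this background were also found on nrfl-1 RNAi, where csr-1, prg-1, hrde-1 and wago-1 were tested and were lower in the RDE-1 and the ALG-1 co-IPs, as were 73.1% and 95.2% of all features and 97.5% and 99.7% of the 22G-RNA genes. The prg-1 inputs there had 13.70, 20.07 and 23.94 RPM for RDE-1 and 21.14, 25.05 and 30.70 RPM for ALG-1, and the co-IPs 2.54, 2.41 and 1.70 RPM and 0.66, 0.68 and 0.96 RPM.

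In these tables alg-1 gave its own 22G-RNAs unevenly. It was at 0 in both GFP::ALG-1 inputs on L4440, at 0.15 and 0 RPM in those on rde-1 RNAi, and at 0 in the 4 GFP::ALG-2 inputs. The inputs of RDE-1 on nrfl-1 RNAi had 0.04, 0.09 and 0.06 RPM, under the value of 3 reads in these inputs, which was 0.121 to 0.168 RPM. In those of ALG-1 on nrfl-1 RNAi, whose columns name an HA tag, it had 0.89, 0.72 and 1.05 RPM. As a share of the 22G-RNAs in ppm that is 9.54 ± 2.67 and 109.1 ± 21.2 (SD, n = 3 each). The first of these shares rests on few reads, and the difference is set across separately made tables and was not tested. For alg-2 these shares were 56.2 ± 8.0 and 88.2 ± 9.38, and for prg-1 2918 ± 304 and 3115 ± 16.6.

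RNAi of rde-1 was compared with L4440 in the inputs of both strains. Of the 9 Argonaute genes, 3 were tested for ALG-1 and 2 for ALG-2, and none passed in limma. Of all features, 10 of 3486 (0.287%) and 28 of 3213 (0.871%) did, and 440 and 460 had an unadjusted p under 0.05. Among the other Argonaute genes, 1 of 4 tested was higher on rde-1 RNAi in the ALG-1 inputs and 1 of 3 in the ALG-2 inputs. That list includes rde-1, the target of this RNAi, and the gene behind each call is not given here. None of these other genes was lower, and no synthesis or partner gene passed, of 6 and 3 tested. The prg-1 inputs on rde-1 RNAi had 5.78 and 8.97 RPM in the ALG-1 strain and 4.06 and 6.70 RPM in the ALG-2 strain, which overlapped those on L4440 given above. The hrde-1 inputs of the ALG-2 strain had 2.39 and 1.58 RPM on L4440 and 2.65 and 2.62 RPM on rde-1 RNAi, without overlap. The difference in co-IP enrichment between rde-1 RNAi and L4440 was tested as an interaction for the same genes among the 9. It passed for none of them, with limma adjusted p from 0.713 to 0.984. These genes had at most 0.27 RPM in any of these co-IPs, where the added 1 RPM outweighs the values. This test therefore could not show whether co-IP enrichment differed.

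The last comparison asked whether mRNAs change without RDE-1. The labels were checked first on rde-1, which had 1506, 1619 and 1389 normalized counts in wild type and 1.07, 0.864 and 0.834 in rde-1(ram40) (log2 fold change of count + 1 of -9.61, SE 0.19, limma adjusted p 4.63e-11). Of the 9 Argonaute genes 7 reached the mean of 10 normalized counts required for the test, and 0 passed it, in either direction, by limma or at an unadjusted p under 0.05. Few genes did: 0.362% of the 11331 tested, 9 higher and 32 lower, with 895 at an unadjusted p under 0.05.

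**Figure D5:**
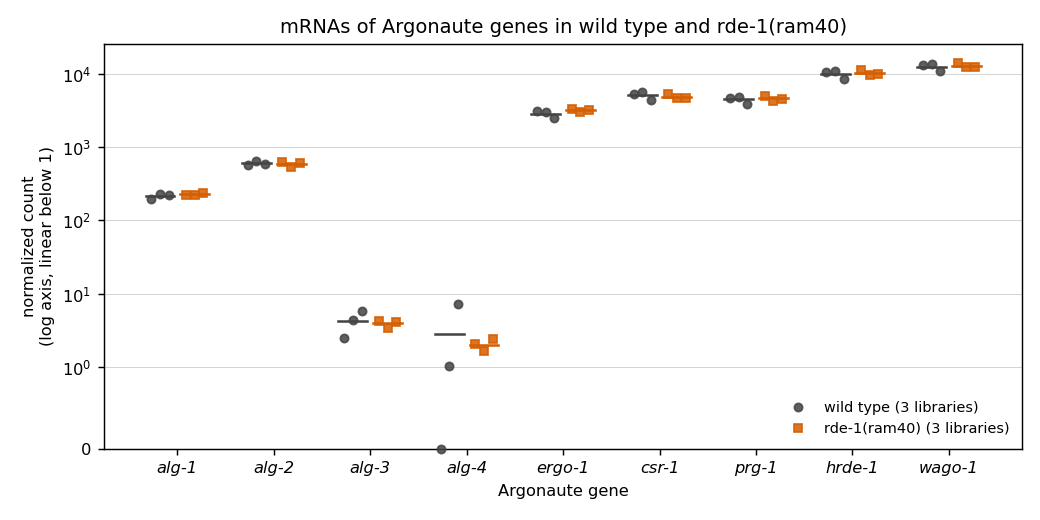
mRNA level of each Argonaute gene in normalized counts (log axis, linear below 1), with 1 point per library and a bar at the group mean, in 3 wild-type and 3 rde-1(ram40) libraries. The groups overlap for every gene, and alg-3 and alg-4 stay below 10 normalized counts in every library.

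For alg-1 the wild-type libraries had 198.1, 227.9 and 223.6 normalized counts and the mutant libraries 224.8, 221.1 and 235.3. The groups overlapped (log2 fold change 0.07, 95% interval -0.19 to 0.33, limma adjusted p 0.940). The 95% interval of the difference was -0.27 to 0.19 for alg-2, which had 575.2, 646.3 and 585.5 in wild type and 628.0, 526.4 and 602.0 in the mutant. The upper bound for alg-1, 0.33, lies below the difference of 1.49 in its 22G-RNAs in rde-1(ne219), but allele and measure differ.

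The largest difference was that of ergo-1, at 3069, 3029 and 2446 normalized counts in wild type and 3329, 2958 and 3151 in rde-1(ram40) (0.15, 95% interval -0.09 to 0.39, limma adjusted p 0.777). For csr-1 the wild-type libraries had 5226, 5620 and 4379 and the mutant libraries 5281, 4587 and 4650 (-0.06, 95% interval -0.31 to 0.19). For prg-1 they had 4663, 4846 and 3849 against 4988, 4269 and 4478 (0.04, -0.20 to 0.29). Wild-type library 3 was the lowest of the 6 for ergo-1, csr-1, prg-1, hrde-1 and wago-1. It was also the lowest in the summed counts of 12 oocyte markers, 86650 against 98851 to 116073 in the other 5, and of 7 germline markers, 15539 against 17830 to 19956. The part of this library in the results is bounded by leaving it out, after which 0 of the 7 genes passed as well. For hrde-1 the groups had 8370 to 10961 and 9628 to 11117 normalized counts, and for wago-1 10732 to 13420 and 12302 to 13807.

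The sperm Argonaute genes alg-3 and alg-4 were nearly silent as mRNAs. For alg-3 the wild-type libraries had 2.46, 4.37 and 5.78 normalized counts and the mutant libraries 4.28, 3.46 and 4.17. For alg-4 they had 0, 1.05 and 7.38 against 2.05, 1.65 and 2.40. Both overlapped and were not tested. The 18 sperm markers summed to 791.6 to 924.8 normalized counts in wild type and 802.6 to 976.2 in the mutant, with 4 of the 18 above the filter and 0 past the test. Of the other Argonaute genes 12 were tested and 1 was lower, rde-1 itself. Of the synthesis and partner genes 25 were tested and 0 passed. No list of cell type markers had a member past the test, although 5 intestine markers summed to 142783 to 219222 in wild type and 123986 to 142690 in the mutant, and 3 muscle markers to 4490 to 6183 and 2840 to 4288, without overlap in either list.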

How the data were processed

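The authors deposited small RNA values as RPM in 8 tables. Per the series' design text, these came from tinyRNA and from Python code of their own. The RPM denominator is not given in the sources used here, and a read may count in more than 1 row. The authors deposited mRNA signal values, counts normalized with DESeq2 size factors after fastp, STAR and RSEM, per the submitters' processing notes. Values were read for 9 genes by name or identifier. Where a gene had rows in 2 classes with equal values, it was counted once. Of the low small RNA values, 69.3% to 93.3% lay on a step of whole reads, so whole reads were not recovered and no count test was run. The mRNA totals were 8.20e+06 to 9.00e+06 per library.

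Fits used limma 3.58.1 in R 4.3.3 (lmFit, eBayes with a trend) on log2(value + 1), keeping small RNA features that averaged 1 RPM or more and genes that averaged 10 normalized counts or more. Tests looked at both directions, and Benjamini-Hochberg adjustment ran over the whole table, with 0.05 as the threshold. Fold changes on this scale understate the change of low features, and plain ratios are of mean RPM. The 4 groups of each ALG-1 and ALG-2 table with rde-1 RNAi were fitted together. The code was tested on simulated data. The 9 genes, all of them named in each comparison, and the gene and marker lists were chosen with earlier results of these data known. Likeness between genes was the Pearson correlation of group means over 12 lysate groups, as log2(RPM + 1) less the group median, for rows with a mean of at least 5 RPM, the 2 most like genes being named. Of the columns, 3 could be matched to a group but not to a single labelled sample (1 of dcr-1 RNAi and 2 RDE-1 inputs on nrfl-1 RNAi). Replicate numbers did not pair libraries by the correlation of their deviations (-0.253 to 0.323). Alternatives were the pseudocount, the filter, the scaling, the trend, a replicate block, the 2 groups alone and leaving out each library.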

Additional observations from a re-analysis of the deposited data

How the results depend on the processing

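Calls were recomputed under all alternatives. The number of Argonaute genes past the threshold in rde-1(ne219), 7, fell to 4 on centring. In the GFP::RDE-1 co-IP, 7 fell to 4 on centring and to 1 on rescaling to the 22G-RNA sum, where ergo-1 turned to 0.011, and alg-2 turned to 0.060 on centring. On dcr-1 RNAi, 2 fell to 0 on centring, under both rescalings, without the filter and without the trend, and was 0 to 2 with libraries left out in turn. There alg-1 turned to -0.13 on centring, -0.10 on rescaling to 22G-RNAs and -0.15 to features that are not microRNAs, under which csr-1 was -0.027 and prg-1 -0.019. With libraries left out alg-1 ranged from -0.076 to 0.22 and alg-2 from -0.33 to 0.095. In embryos, 7 fell to 3 on centring, with alg-2 at 0.12 and ergo-1 at 0.15.

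In the ALG-1 co-IPs on L4440, 3 lower calls became 2 higher ones on centring, 0 under both rescalings, 0 with a filter at 5 RPM and 5 without a filter. On rde-1 RNAi they became 2 higher on centring, 1 on rescaling to 22G-RNAs, 0 at 5 RPM and 5 without a filter. In the ALG-2 co-IPs, 2 lower calls became 2 higher (L4440) and 1 higher (rde-1 RNAi) on centring, and for each food 0 under both rescalings, 0 at 5 RPM and 6 without a filter. In the ALG-2 inputs on rde-1 RNAi, 0 became 1 without a filter. On nrfl-1 RNAi, 4 calls for RDE-1 became 1 at 5 RPM, 2 on centring and 0 on rescaling to 22G-RNAs, and 4 for ALG-1 became 9 without a filter, 2 at 5 RPM and 0 on that rescaling. Fewer or more genes tested accounts for the changes with the filter in part. A higher call on centring is relative to the median of all features. The added 1 RPM limits the fall of low genes on that scale. For the other changes the cause was not tested.

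Among mRNAs no Argonaute gene passed under any alternative. With libraries left out, the log2 fold change ranged from -0.096 to 0.032 for alg-2, -0.17 to 0.014 for csr-1, -0.057 to 0.11 for prg-1, -0.083 to 0.11 for hrde-1 and -0.044 to 0.12 for wago-1. Over all features, the count of calls ran from 4515 (no filter) to 7194 beside 7152 in rde-1(ne219), from 9 (no trend) to 1682 beside 1632 on dcr-1 RNAi, from 1589 (22G-RNA rescaling) to 8773 beside 8520 in the GFP::RDE-1 co-IP, and from 13 (no trend) to 89 (replicate block) beside 41 among mRNAs.

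Replicate numbers share no stated batch. With the replicate block, 7 Argonaute genes passed in rde-1(ne219), 7 in the GFP::RDE-1 co-IP and 0 among mRNAs, and 6 in embryos, where alg-1 was lost (adjusted p 0.102). Libraries deviated most like the one with their own number in 1 of 6 cases in rde-1(ne219) and 4 of 6 among mRNAs. The dcr-1 RNAi and L4440 libraries share 1 number, so no block was fitted. Depth limits alg-3 and alg-4, and every gene in the libraries poor in 22G-RNAs.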

Other observations

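Rows of 26G-RNAs, outside the 22G-RNA comparisons above, were listed for 6 of the Argonaute genes in all 47 libraries. They were above 0 in 20 libraries for alg-3, 17 for csr-1, 16 for hrde-1, 13 for alg-4, 12 for prg-1 and 5 for wago-1, with highest values of 0.470, 0.330, 0.420, 0.390, 0.540 and 0.200 RPM. For prg-1 the dcr-1 RNAi libraries had 0.54 and 0.47 RPM and the L4440 libraries 0.42 and 0 RPM, which did not overlap but rest on few reads. For hrde-1 they had 0 and 0.04 RPM against 0.19 and 0.42 RPM. No test was run on these rows, which were below the filter.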
